A study of Homo sapiens with 8 samples.

Results

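The 46 genes described here encode subunits of respiratory complexes II, III, IV and V, an inhibitor of complex V (ATP5IF1) and the electron carrier cytochrome c. They were chosen by symbol only: SDHA to SDHD for complex II, CYC1 and the UQCR genes for complex III, CYCS for cytochrome c, the COX subunit genes of the form COX5A or COX6B1 for complex IV (COX4I1 and COX4I2 do not match), and the ATP5 genes for complex V. They are 46 of the 17953 genes that the authors' deposited table of transcript stability covers with accessions of curated messenger RNAs (prefix NM). Complex II contributed 4 genes, complex III 10, cytochrome c 1, complex IV 14 and complex V 17. Of the protein-coding genes that fit the pattern of symbols, 2 had no value under this rule, ATP5F1E and ATP5MGL, and are not analysed here.

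The respiratory chain passes electrons from complex II (and complex I) through ubiquinone to complex III, on by cytochrome c to complex IV, and finally to oxygen. Complexes III and IV pump protons across the inner mitochondrial membrane, and complex V, the ATP synthase, uses the returning protons to make ATP. Most subunits are encoded in the nucleus, so their messenger RNAs are made by RNA polymerase II, and the proteins are imported. The catalytic core of complex IV and cytochrome b of complex III are encoded in mitochondrial DNA and are not among these genes.

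The experiment asked how loss of TARBP2, a double-stranded RNA-binding protein known as a partner of Dicer, changes transcript stability in MDA-LM2 cells. These human breast cancer cells descend from MDA-MB-231 and were selected in mice for spread to the lung. Its 4 groups of 2 Illumina BeadChip arrays held total RNA from cells given siControl or siTARBP2, either untreated at 0 h or kept for 18 h in alpha-amanitin at 10 µM, which was added 48 h after transfection by Lipofectamine. Alpha-amanitin blocks RNA polymerase II, so that an RNA made by it can only be lost from then on. Each knock-down array carried 1 of 2 siRNAs, siTARBP2-1 or siTARBP2-2, and the series text calls the control cells mock-transfected where the sample labels name a control siRNA. All groups share the transfection reagent and the single cell line, and nothing states that the control arrays came from separate cultures.

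Between 15541 and 17619 of 47321 probes were detected per array, or 32.8% to 37.2%, and replicate arrays correlated at r = 0.994 to 0.997 across detected probes. Probes carried no gene names in the files, so neither the level of TARBP2, nor markers of the cell line, nor the level of any respiratory gene on a given array could be read. Every gene value below is therefore a single stability ratio per accession from the authors' deposited table, siTARBP2 over siControl on the log2 scale. It has no replicate and no error of its own, so no gene or complex was tested, and all comparisons of genes are descriptions. A positive ratio is read here, from the table's header, as a transcript that was more stable in knock-down than in control cells.

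Promoter sequences are shown for the members at both ends of the ratios, to let a reader see which motifs these genes carry in front of their start sites. Each line holds the 200 bases before the annotated start from RefSeq (GRCh38.p14), on the strand of the gene. Capitals mark matches on either strand to GCGCANGCG, the core recognised by the factor NRF1, to CCGGAAG, recognised by ETS factors such as GABP, or to AANATGGC, recognised by YY1. UQCR11 (chr19:1605463-1605662, minus strand) had the highest ratio, SDHA (chr5:218120-218319, plus strand) the next, and ATP5MJ (chr14:103921530-103921729, minus strand) and ATP5MK (chr10:103396476-103396675, minus strand) the lowest.
UQCR11: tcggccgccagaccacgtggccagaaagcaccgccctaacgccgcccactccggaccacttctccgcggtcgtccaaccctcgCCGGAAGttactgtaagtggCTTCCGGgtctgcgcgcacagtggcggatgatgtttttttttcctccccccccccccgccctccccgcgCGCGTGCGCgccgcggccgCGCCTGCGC
SDHA: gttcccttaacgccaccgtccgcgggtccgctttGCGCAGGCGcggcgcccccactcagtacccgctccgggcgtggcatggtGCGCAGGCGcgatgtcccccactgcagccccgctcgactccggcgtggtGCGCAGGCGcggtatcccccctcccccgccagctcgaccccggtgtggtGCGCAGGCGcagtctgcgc
ATP5MJ: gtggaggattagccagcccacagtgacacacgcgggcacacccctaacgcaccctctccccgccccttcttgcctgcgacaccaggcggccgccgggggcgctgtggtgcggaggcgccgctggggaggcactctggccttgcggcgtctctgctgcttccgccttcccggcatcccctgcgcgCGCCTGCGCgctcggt
ATP5MK: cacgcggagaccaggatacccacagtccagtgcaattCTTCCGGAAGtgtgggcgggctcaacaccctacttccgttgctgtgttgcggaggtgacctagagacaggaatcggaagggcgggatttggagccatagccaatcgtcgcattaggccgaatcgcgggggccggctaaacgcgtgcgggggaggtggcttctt
The window of UQCR11 held 2 NRF1 and 2 ETS matches, and that of SDHA held 4 NRF1 matches. At the other end, ATP5MJ had 1 NRF1 match, and ATP5MK had 2 ETS matches, which overlap as CTTCCGGAAG read on both strands. Genes at opposite ends of the stability ratios thus carried matches of the same kinds, and no match says anything of whether the factor binds.

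The ratios of the respiratory genes centred slightly below those of all genes. From the authors' deposited table, their median log2 ratio came to -0.046, or 0.969-fold, against 0.029 over the 17953 genes. Of the 46 genes, 31 lay below the median of all genes of the authors' deposited table and 15 above it. The spread between the 46 genes was 0.24 (SD of the log2 ratio), and that between all genes 0.22; whether the shift of the median exceeds its error was not tested. The authors' class of stabilized accessions begins at a log2 ratio of 0.32, which is used here as the upper threshold, and its reciprocal, 0.8-fold or a log2 ratio of -0.32, as the lower one.

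Above the upper threshold lay 3 of the 46 genes (6.52%) of the authors' deposited table, where the share over all genes was 8.95%. They were UQCR11, SDHA and COX8C. Below 0.8-fold lay 7 genes (15.2%) of the authors' deposited table, against 5.06% of all genes, a base not filtered here for detection. The 7 were ATP5MK, ATP5MJ, COX5A, SDHD, ATP5MC3, UQCRB and UQCRH. Of them, 5 lay just inside the threshold, between 0.790-fold and 0.799-fold. The nearest outside it were UQCRHL at 0.818-fold and COX6C at 0.834-fold in the authors' deposited table, and on the upper side COX7A1 at 1.24-fold. With looser thresholds, log2 ratios of 0.20 and -0.20, the authors' deposited table gave 5 genes above and 11 below, where 20.3% and 12.9% of all genes passed.

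**Figure D1:**
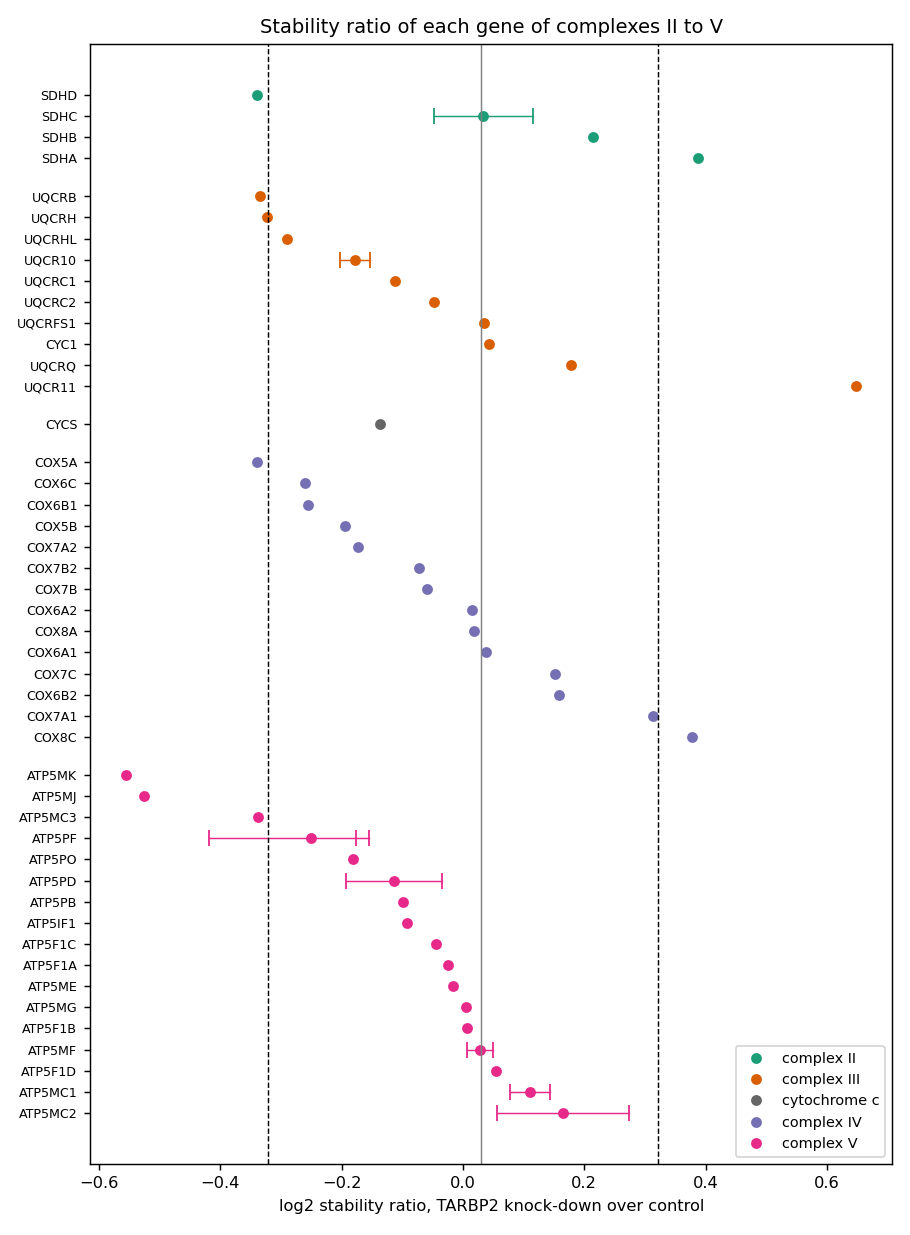
Log2 stability ratio, knock-down over control, of each of the 46 genes by complex; dots are gene means, and ticks joined by a line are the single accessions of the 7 genes that have several. Dashed lines stand at log2 ratios of 0.32 and -0.32 and the grey line at the median of all genes, 0.029; UQCR11 lies farthest right and ATP5MK and ATP5MJ farthest left.

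How far a ratio can be read depends on 2 measures of error. The arrays give the first. For the difference between the arms in the 18 h change, limma's standard error over 18664 detected probes had a median of 0.13 on the log2 scale, with quartiles of 0.11 and 0.18. How the authors computed the deposited ratio is not stated in the sources used here, so this error only sets a scale. The probe differences behind it had an SD of 0.37, wider than the 0.22 between the ratios of all genes. On the authors' normalized values that SD was 0.28 and the median standard error 0.11. Of the 46 log2 ratios in the authors' deposited table, 25 (54.3%) were larger in size than the median standard error of 0.13. Beyond 2 of these standard errors, 0.26, lay 12 (26.1%). Over all genes of the authors' deposited table the shares were 51.6% and 21.3%.

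Accessions of a single gene give the second measure. Over 2106 genes with a pair of NM accessions in the authors' deposited table, the members of a pair differed by a median of 0.20. The root mean square of these differences, divided by the square root of 2, gives an SD of 0.22 for a single accession. That is about as large as the SD between the ratios of all genes, also 0.22. The 2 accessions of a gene thus differed about as much as different genes did. Among the respiratory genes, 7 had several accessions in the authors' deposited table, and their ranges ran from 0.043 for ATP5MF to 0.26 for ATP5PF. Of the 46 log2 ratios, 31 were smaller in size than the SD of 0.22 for a single accession (67.4%, against 70.1% of all genes in the authors' deposited table). Accessions of a gene differ in sequence and may also report different transcripts, so this spread is not error alone.

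**Figure D2:**
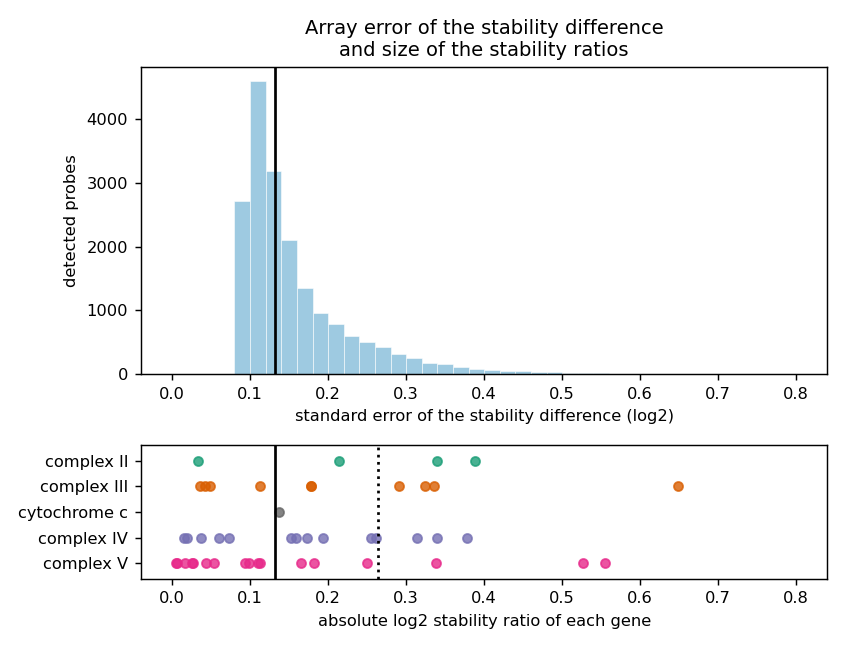
Upper panel, histogram of the standard error (log2) of the stability difference over 18664 detected probes, with the median of 0.13 as a line. Lower panel, absolute log2 ratio of each respiratory gene by complex, with lines at 1 (solid) and 2 (dotted) median standard errors; 12 of the 46 genes lie beyond the dotted line.

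Probes below detection also passed such folds. Of 27528 probes undetected on all 8 arrays, 5.22% had a stability difference above a log2 value of 0.32 and 5.76% below -0.32 on the normalized values deposited by the authors. On the same values 12.4% and 10.9% of the detected probes passed. Which of the respiratory genes were detected is not known here. Their 15.2% below 0.8-fold could therefore not be set against detected genes alone, and part of its distance from 5.06% may lie in that base.

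Complex II, succinate dehydrogenase, oxidises succinate in the tricarboxylic acid cycle and reduces ubiquinone. SDHA encodes the flavoprotein that binds succinate, and the authors' deposited table gives it 0.39 (1.31-fold), classed as stabilized. It has closely similar pseudogenes, so the assignment of its probe is uncertain. Probes of the other respiratory genes were not checked for similar copies either. SDHB, the iron-sulfur subunit that hands electrons on, had 0.21 (1.16-fold) in the authors' deposited table. The membrane anchors that hold the ubiquinone site were lower: SDHC had -0.048 and 0.11 on its accessions, with a mean of 0.034, and SDHD had -0.34 (0.790-fold) in the authors' deposited table. The 4 genes thus spanned 0.73 on the log2 scale, with the catalytic subunits above the anchors. SDHB exceeded the mean of SDHC by less than the SD of 0.22 for a single accession, and this order was not tested. The median of the 4 genes was 0.12, the highest of the 4 complexes in the authors' deposited table.

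Complex III passes electrons from ubiquinol to cytochrome c. Its nuclear-encoded catalytic subunits had ratios near 0, with cytochrome c1 (CYC1) at 0.042 and the Rieske iron-sulfur protein (UQCRFS1) at 0.035 in the authors' deposited table. The core proteins on the matrix side, UQCRC1 and UQCRC2, had -0.11 and -0.048 in the authors' deposited table. The small subunits around this core held both ends of the complex. UQCR11 had 0.65 (1.57-fold), the highest ratio of the 46 genes and at the 99.4th percentile of all genes in the authors' deposited table. UQCRQ, which binds next to cytochrome b, followed at 0.18 in the authors' deposited table.

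The other small subunits of complex III lay on the low side. UQCRB, which lies near the ubiquinone site, had -0.34 (0.793-fold), and UQCR10 had -0.20 and -0.15 on its accessions in the authors' deposited table. UQCRH, the hinge protein that helps cytochrome c dock, had -0.32, and its near copy UQCRHL had -0.29 in the authors' deposited table. A probe may not separate those near-identical genes, so they may not be independent values. UQCR11 and UQCRB, the highest and lowest genes of complex III, differed by 0.98 in the authors' deposited table. They were picked as the ends of the range, so this difference cannot be judged by the error of a single probe. The soluble carrier CYCS, which also triggers apoptosis when released to the cytosol, had -0.14 (0.909-fold) in the authors' deposited table.

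Complex IV reduces oxygen to water, and its nuclear-encoded subunits surround a mitochondrially encoded core. The median of the 14 genes was -0.022 in the authors' deposited table. The 9 subunits used in most tissues had a median of -0.17, while the 5 isoforms known from muscle or testis had a median of 0.16 in the authors' deposited table. The groups overlapped: the common subunits ran from -0.34 to 0.15 and the restricted isoforms from -0.073 to 0.38.

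Among the common subunits the lowest were COX5A, a matrix-side subunit, at -0.34 (0.790-fold) and COX6C at -0.26 in the authors' deposited table. COX6B1, which faces the intermembrane space and touches cytochrome c, had -0.26 there as well, and COX5B, a zinc-binding matrix-side subunit, had -0.19 in the authors' deposited table. COX7A2 had -0.17 and COX7B had -0.060. Near or above 0 in the authors' deposited table were COX8A at 0.019, COX6A1 at 0.037 and COX7C at 0.15. In all, 6 of the 9 common subunits had ratios under 0, as did 43.97% of all genes in the authors' deposited table. COX5A alone lay below 0.8-fold, where 5.06% of all genes lay.

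The restricted isoforms can be set beside their common partners. Each gene of these pairs has a single accession, and no error of a difference between genes was measured. COX7A1, the form of heart and skeletal muscle, had 0.31 against -0.17 for COX7A2 in the authors' deposited table, a difference of 0.49. The testis form COX6B2 had 0.16 against -0.26 for COX6B1, a difference of 0.41, and the testis form COX8C had 0.38 against 0.019 for COX8A, a difference of 0.36, in the authors' deposited table. The remaining pairs differed by less than the median standard error of the arrays in the authors' deposited table, with COX6A2, also of striated muscle, at 0.015 beside COX6A1 at 0.037, and COX7B2 at -0.073 beside COX7B at -0.060. Whether MDA-LM2 cells make these isoforms above detection was not tested. Without them, the median of complex IV was -0.17, against -0.022 with them, in the authors' deposited table.

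**Figure D3:**
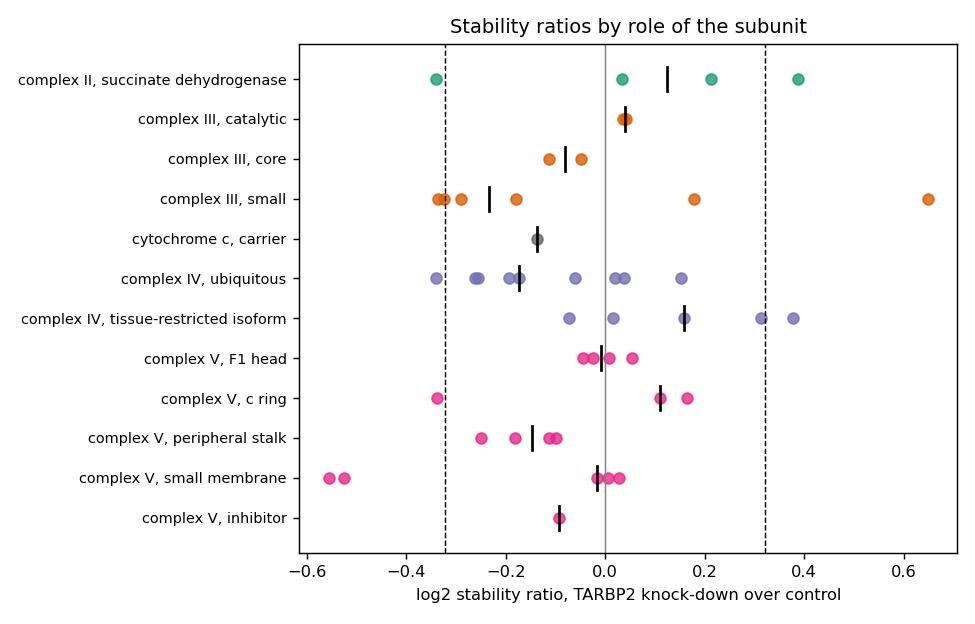
Log2 stability ratio of the 46 genes by the role of the subunit; each dot is a gene, the black bar the median of a role, and dashed lines stand at log2 ratios of 0.32 and -0.32. The F1 head lies close to 0, all 4 peripheral stalk genes lie under 0, and the restricted isoforms of complex IV lie to the right of the common subunits, with overlap.

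Complex V turns a proton flow into ATP through a membrane motor and a catalytic head in the matrix. The F1 head genes stayed within 0.054 of 0. The catalytic beta subunit ATP5F1B had 0.00685, the alpha subunit ATP5F1A had -0.025, and the central stalk subunits ATP5F1C (gamma) and ATP5F1D (delta) had -0.044 and 0.054 in the authors' deposited table. This range of 0.098 is smaller than the median standard error of the arrays.

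The peripheral stalk keeps the head from turning with the rotor. Its 4 genes all had ratios under 0 in the authors' deposited table, with a median of -0.15, where 43.97% of all genes lay under 0. The sign of values this small depends on how the ratios were centred, which is not known. ATP5PF had accessions at -0.42, -0.18 and -0.16, ATP5PO, which ties the stalk to the head, had -0.18, ATP5PD had -0.19 and -0.034, and ATP5PB had -0.098 in the authors' deposited table. No mean of these passed 0.8-fold, although a single accession of ATP5PF did, at 0.748-fold.

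The rotor ring is built from subunit c, which 3 genes encode with the same mature protein and different import sequences. ATP5MC1 had accessions at 0.078 and 0.14, and ATP5MC2 at 0.056 and 0.27, in the authors' deposited table. ATP5MC3 had -0.34 (0.791-fold) in the authors' deposited table. The gene means for a single mature protein were thus 0.50 apart at most, with ATP5MC3 on the other side of 0 from its partners.

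The small membrane subunits of complex V, which lie where synthase dimers meet, formed a low pair and a group near 0. ATP5MK, also known as DAPIT or USMG5, had -0.55 (0.681-fold) and ATP5MJ, the 6.8 kDa proteolipid, had -0.53 (0.694-fold) in the authors' deposited table. They stood at the 0.613th and 0.808th percentiles of all genes, the lowest of the 46. ATP5ME, ATP5MG and ATP5MF had -0.017, 0.0053 and 0.027 in the authors' deposited table. ATP5IF1, the inhibitor that stops the synthase from running backwards, had -0.093 there. None of the 17 genes of complex V lay above the upper threshold in the authors' deposited table, where 8.95% of all genes did, and the highest, ATP5MC2, had a mean of 0.16.

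The complexes can be set side by side only as a description. Medians in the authors' deposited table were 0.12 for complex II, -0.080 for complex III, -0.022 for complex IV and -0.044 for complex V. The widest gap, complex II over complex III, was 0.20, and the genes of a complex had an SD of 0.31, 0.30, 0.22 and 0.20 in the same order. Without the tissue-restricted isoforms, complex IV had the lowest median, -0.17, so the order depended on which genes were counted. Complex II has 4 genes, so its median moves with any of them. Counts past the thresholds were 1 above and 1 below for complex II, 1 and 2 for complex III, 1 and 1 for complex IV, and 0 and 3 for complex V in the authors' deposited table, where 8.95% of all genes lay above and 5.06% below. The order of the complexes was not tested.

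Other genes of the pathway give a setting for these values. The 37 complex I subunits had a median of -0.049 in the authors' deposited table, beside -0.046 for complexes II to V. Of the 37, 2 lay above the upper threshold and 2 below 0.8-fold (5.41% each) in the authors' deposited table, against 8.95% and 5.06% of all genes. The 37 measured assembly factors of complexes II to V had a median of -0.012 in the authors' deposited table, with 2 genes above and 2 below, the same shares as complex I. Above were COA7 at 1.44-fold and SCO2 at 1.34-fold, both needed to build complex IV, and below were ATPAF2, a chaperone of the F1 head, at 0.714-fold and COX18 at 0.787-fold. The ATPAF2 value stood apart from the F1 head genes it serves, which lay near 0 in the authors' deposited table. The 3 measured complex IV subunits or relatives outside the symbol pattern, COX7A2L, COX4I1 and COX4I2, had -0.17, -0.067 and 0.098 in the authors' deposited table. Of 12 transcriptional and post-transcriptional regulators of respiratory genes, 0 passed either fold in the authors' deposited table, where 8.95% of all genes lay above and 5.06% below. With 12 genes, so low a count says little. These regulators ran from PPARGC1B at -0.26 to CLUH at 0.24.

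**Figure D4:**
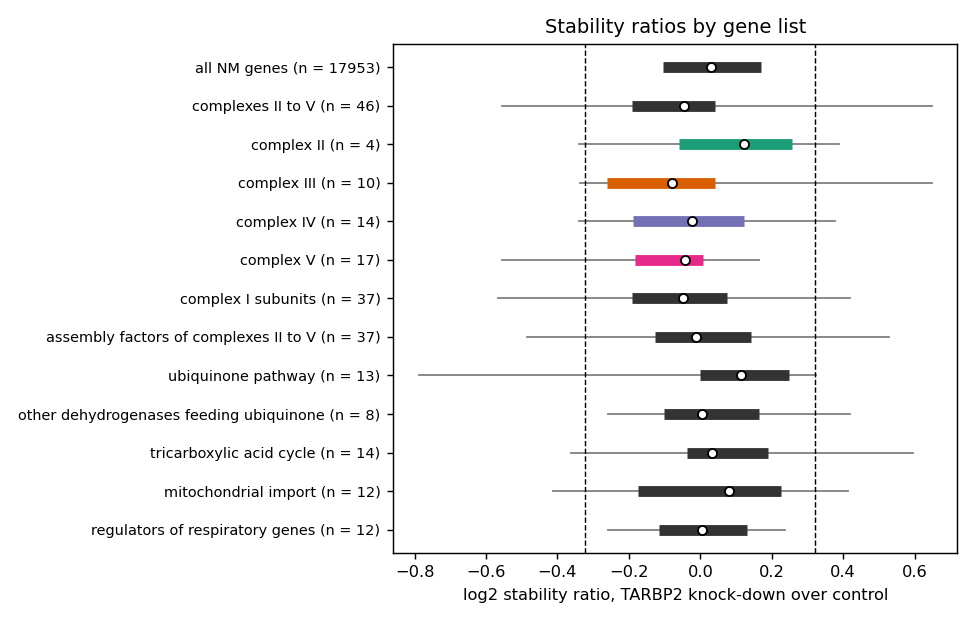
Log2 stability ratio by gene list; white dots are medians, thick bars the quartiles and thin lines the lowest and highest gene (not drawn for all 17953 genes). Dashed lines stand at log2 ratios of 0.32 and -0.32; the medians of complexes II to V and of complex I, -0.046 and -0.049, lie side by side just left of that of all genes, 0.029.

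Promoter motifs, which the choice by symbol did not use, were each found in a minority of the members, apart from the letters of Sp1. RefSeq promoters of 300 bases, from 250 before to 50 after the start, were matched for 36 of the 46 genes and for 14378 of all genes. The NRF1 core GCGCANGCG occurred in 14 of the 36 (38.9%), against 11.6% of all promoters, counting both strands. CCGGAAG, the ETS letters, also occurred in 14 (38.9%), against 14.7%, and the YY1 letters AANATGGC in 10 (27.8%), against 8.23%. GGGCGG, the letters of Sp1, were in 52.8% of the members and 60.04% of all promoters, and TATAAA in 11.1% and 9.27%. Members with and without these letters lay close together in ratio, since median log2 values in the authors' deposited table were -0.030 with and -0.067 without the NRF1 letters, and -0.065 and -0.054 for the ETS letters.

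The start of the transcript was read as well, since messages that begin with a C and a run of pyrimidines are known to be controlled as a class through their 5′ end. A C followed by at least 4 pyrimidines stood at the annotated start of 5 of the 36 members (13.9%), against 4.73% of all genes. They were UQCRH, COX7C, ATP5MG, ATP5MC2 and ATP5PO, with ratios from -0.32 to 0.16 in the authors' deposited table. Their median was 0.0053, beside -0.060 for the other 31 members with a promoter in the table.

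**Figure D5:**
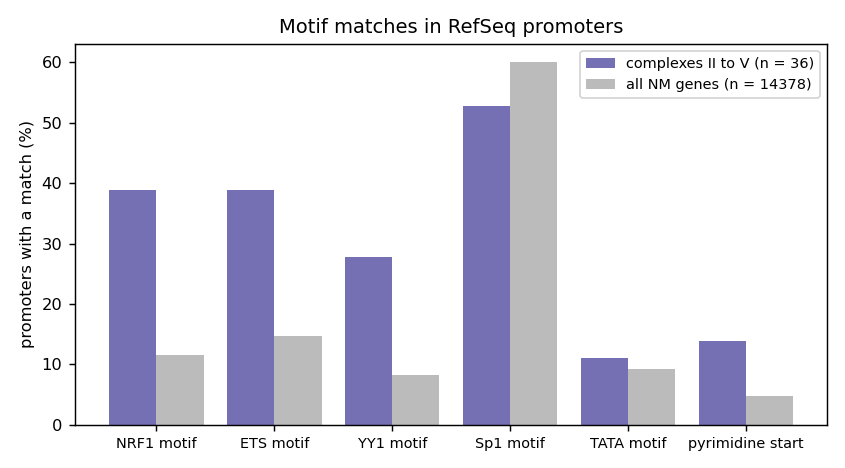
Share of RefSeq promoters (%) that hold each motif, or start with a C and at least 4 pyrimidines, for 36 respiratory genes (purple) and 14378 genes (grey). The NRF1, ETS and YY1 motifs are more frequent among the respiratory genes, at 38.9%, 38.9% and 27.8%, than among all genes.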

How the data were processed

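The authors deposited log2 ratios of transcript stability per accession and a class for each, per the file headers, but how the ratio was computed is not stated in the sources used here. They also deposited non-normalized probe intensity values, a detection p-value beside each, and an intensity table that its values show to be normalized between arrays. The submitters' processing notes name lumi.

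Accessions were matched without version to RefSeq symbols (GRCh38.p14, used for names only): 20865 of 22771 NM accessions matched. The ratios of a gene were averaged with pandas 2.3.3. For the array error, intensities went through neqc (offset 16, quantile normalization) in limma 3.58.1 (R 4.3.3), with probes kept at a detection p-value under 0.01 in at least 2 arrays. The fit had 1 coefficient per group over 8 arrays, did not pair the arrays that share an siRNA, and was tested on simulated data. The number of arrays limits the precision, and replicate arrays of the control may be technical. Those of the knock-down carried different siRNAs, so their spread includes any difference between the siRNAs. Quantile normalization removes a global loss of RNA.

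The members, lists and tests were chosen with earlier results of these data known. All members were named, and from other lists the genes past a fold or at the ends. Comparison between complexes used counts and medians only.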

Additional observations from a re-analysis of the deposited data

How the results depend on the processing

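With the looser thresholds of 0.20 and -0.20 the number of genes above was 5 in place of 3 and below was 11 in place of 7. The other planned choices were median or lowest-numbered accession, all matched accessions, accessions counted singly, all structural subunits and no tissue-restricted isoforms. Under them counts above ran from 2 to 3 and below from 7 to 8, out of 41 to 54 genes or accessions. Leaving out UQCR11, ATP5MK and ATP5MJ was chosen after seeing the data. It gave 2 above and 5 below of 43, which was fixed in advance because all 3 genes had passed a threshold. Across all these choices the median log2 ratio of all members ran from -0.060 to -0.044 and that of complex II from 0.083 to 0.12. Complex III ran from -0.11 to -0.048, complex IV from -0.17 to -0.022 and complex V from -0.044 to -0.025. Each median kept its sign, but the settings shared most of their values and none changed the centring of the ratios. The sign was therefore not put to a test. The median of complex IV moved most, to -0.17 without the tissue-restricted isoforms, and no error of these medians was measured.

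The median standard error of the array stability difference, 0.132, was 0.129 with the replicate number as a block within each arm. In the knock-down arm this number is that of the siRNA, which the 0 h and 18 h arrays share. Whether the number pairs the control arrays is not stated. Without 1 array the median standard error ran from 0.141 to 0.147. It was 0.111 on the deposited normalized values, 0.148 over all probes and 0.134 with arrays scaled by their median. That scaling shifted the median stability difference from 0.0075 to 0.22, so the sign of a small ratio depends on centring, and that of the deposited ratio is not known. Shares of undetected probes past the folds, a count added after seeing the data, were 5.6% above and 6.77% below on neqc values. No paired analysis of a gene was possible because its deposited ratio has no replicates.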

Other observations

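Genes past a threshold were also found in neighbouring mitochondrial pathways. Of 14 tricarboxylic acid cycle genes, 3 lay above the upper threshold of 0.32 (log2) in the authors' deposited table, where 8.95% of all genes did: IDH2, the mitochondrial NADP-dependent isocitrate dehydrogenase, at 1.51-fold, DLST, a subunit of the 2-oxoglutarate dehydrogenase complex, at 1.40-fold, and IDH3A at 1.33-fold. MDH2, malate dehydrogenase, lay below 0.8-fold, at 0.778-fold, in the authors' deposited table, where 5.06% of all genes did. Of 13 genes for making or handling ubiquinone, 3 lay above, COQ8A, COQ8B and COQ9, all within 0.001 of the threshold at log2 ratios of 0.322 to 0.323 in the authors' deposited table. COQ4, which acts in ubiquinone synthesis, had 0.579-fold, the lowest ratio of the lists examined in the authors' deposited table.

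Of 12 import genes, 1 lay above the upper threshold and 1 below 0.8-fold (8.33% each), against 8.95% and 5.06% of all genes. They were TOMM70, a receptor of the outer membrane, at 1.33-fold and TIMM17A, of the inner membrane channel, at 0.752-fold in the authors' deposited table. Its paralog TIMM17B had 0.872-fold. Among 8 genes of other routes into ubiquinone, DHODH of pyrimidine synthesis lay above at 1.34-fold in the authors' deposited table. That is 12.5%, against 8.95% of all genes. Within complex I, NDUFB9 at 1.34-fold and NDUFA11 at 1.28-fold lay above, and NDUFC2 at 0.676-fold and NDUFA1 at 0.766-fold below in the authors' deposited table.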
